A study of Mus musculus with 15 samples.

Results

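Fgf7, Trabd2b, Tnc and Ostn encode secreted or cell-surface proteins, and they were chosen by their large fall in transcript level in the cerebellum of ATXN1[82Q] mice. They are 4 of the 24421 genes in the tables, and all 4 were among the 15843 genes with enough counts to be tested. By size of fall in ATXN1[82Q] against wild type they held places 4, 6, 10 and 17. That comparison chose the genes, so its values are given for them as a description, without a test. Its intervals take no account of the choice, and choosing by size tends to overstate a fall.

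The tissue was whole cerebellum of FVB mice, in 3 genotypes with 5 libraries each. The first carried Pcp2-ATXN1[82Q], a human ATXN1 transgene with 82 glutamines driven by the promoter of Pcp2, which is active in Purkinje cells. The second carried Pcp2-ATXN1[82Q]V591A;S602D, the same transgene with a pair of substitutions known to weaken the grip of ATXN1 on the transcriptional repressor CIC, and is called the substituted transgene here. The third was wild type. The animals keep their own mouse Atxn1, and how far reads of the human transgene were counted under that gene was not tested. The sources used here do not give age, sex or the founder line of each transgene, nor say which libraries share an animal, and p-values reflect only how libraries vary. In whole tissue, fewer cells of a type and less RNA per cell cannot be told apart.

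FGF7, also called keratinocyte growth factor, is a secreted ligand that signals through a splice form of the receptor FGFR2, and in the mouse hippocampus it helps to organise inhibitory nerve terminals. TRABD2B, also called TIKI2, is a membrane-anchored protease that clips Wnt proteins and so inhibits them, as known from frog embryos and human cells. Tenascin-C, the product of Tnc, is a large matrix glycoprotein bound by integrins, syndecan-4, annexin A2 and a receptor phosphatase, and in the developing cerebellum it is known as a product of astroglia. Osteocrin, the product of Ostn, is a peptide of bone and muscle that binds the natriuretic peptide clearance receptor NPR3, and in primate neurons its gene is switched on by activity through MEF2 sites.

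All 4 genes are protein-coding. In GRCm38 coordinates, Fgf7 lies on the forward strand of chromosome 2 from 126034658 to 126091185 with 3248 exonic bases, and no exon of another gene overlaps its exons. Trabd2b lies on the forward strand of chromosome 4 from 114406724 to 114615098 with 6617 exonic bases and is likewise free of overlap. Tnc lies on the reverse strand of chromosome 4 from 63959785 to 64047015 with 7772 exonic bases, of which 2.26% are shared with the exons of 8030451A03Rik. Ostn lies on the forward strand of chromosome 16 from 27307489 to 27351212 with 1423 exonic bases, of which 12.9% are shared with the exons of Gm32312. The counting is not stated to use strand, so reads from these shared stretches cannot be assigned to either gene.

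Promoter entries in RefSeq (GRCm38.p6) were found for Fgf7 and Tnc, 2 of the 4 genes, and not for Trabd2b and Ostn. They are shown as a description. The genes were chosen by their fall in the same comparison, so a shared fall there follows in part from the choice. With the substituted transgene, Fgf7 was further below wild type than Tnc, and a shared control of these promoters was not tested. The bases before the start site are printed 5′ to 3′ on the strand of the gene. The Fgf7 stretch is chr2:126034408-126034657 (forward strand), and the Tnc stretch, the more upstream of 2 start sites listed, is chr4:64047016-64047265 (reverse strand).
Fgf7: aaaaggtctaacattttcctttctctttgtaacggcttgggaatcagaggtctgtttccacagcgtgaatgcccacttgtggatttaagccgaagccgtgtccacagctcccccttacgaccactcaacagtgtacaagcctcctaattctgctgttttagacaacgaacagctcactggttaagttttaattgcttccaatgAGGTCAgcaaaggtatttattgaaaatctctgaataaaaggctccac
Tnc: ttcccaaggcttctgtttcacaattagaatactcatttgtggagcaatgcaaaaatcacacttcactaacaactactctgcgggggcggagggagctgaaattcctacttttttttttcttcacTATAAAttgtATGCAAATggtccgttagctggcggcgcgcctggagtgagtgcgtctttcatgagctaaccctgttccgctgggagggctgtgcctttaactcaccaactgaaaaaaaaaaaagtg
Capitals mark matches to the motifs searched on both strands. These were AGGTCA (the half-site bound by ROR receptors), ATGCAAAT (the octamer of POU factors), TATAAA (the TATA box) and TGAATGAA and TGAATGGA (words bound by CIC). No matches overlap one another. The window searched was 300 bases, of which 250 precede the start. AGGTCA stood 47 bases before the Fgf7 start and is in 16.3% of 32851 promoters of that length. TATAAA stood 126 bases and ATGCAAAT 116 bases before the Tnc start, and they are in 13.6% and 1.74% of promoters. Neither of these CIC words was in either window, and they are in 1.3% and 1.21% of promoters. Other forms of the CIC site were not searched. A match describes letters and is no evidence of a bound site.

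Counts assigned to genes ran from 36467948 to 42818401 per library. Each of the 16 Purkinje cell markers had counts in every genotype. They summed to 4192 to 4853 CPM (counts scaled for library size, with TMM factors) in ATXN1[82Q]. The sums were 7196 to 9608 CPM with the substituted transgene and 9987 to 11230 CPM in wild type. Calb1, the Purkinje calcium buffer, averaged 452 ± 40.2, 795 ± 67.6 and 1050 ± 49.6 CPM in the same order, and Gabra6, a granule cell receptor subunit, 906 ± 79.8, 1247 ± 71.2 and 1280 ± 116 CPM (SD, n = 5 each). Both cerebellar cell types were therefore present in every library. The mouse Atxn1 gene averaged 76.8 ± 6.46, 83.9 ± 4.04 and 70.1 ± 9.03 CPM. Ttr, a choroid plexus transcript, was above 1000 CPM in 3, 3 and 2 libraries and under 100 CPM in the other 2, 2 and 3. Xist was above 1000 CPM in 2 libraries of each genotype.

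Fgf7 was the member with the steepest fall. In ATXN1[82Q] it read 8.55, 6.26, 8.58, 7.18 and 6.02 CPM in replicates 1 to 5, with the substituted transgene 12.3, 22.2, 40.9, 18.6 and 21.8 CPM, and in wild type 45.0, 47.3, 51.0, 52.8 and 44.7 CPM. The 3 genotypes did not overlap, and replicate 3 of the substituted transgene stood close under the lowest wild-type library. The means were 7.32 ± 1.22, 23.2 ± 10.7 and 48.2 ± 3.60 CPM (SD, n = 5 each). Against wild type, Fgf7 was 6.59-fold lower in ATXN1[82Q] (95% interval 4.73 to 9.17).

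Trabd2b followed the same order of genotypes. It read 7.70, 5.01, 5.57, 5.61 and 4.81 CPM in ATXN1[82Q], 13.6, 19.1, 30.4, 18.8 and 25.2 CPM with the substituted transgene, and 33.5, 42.9, 35.3, 35.6 and 35.7 CPM in wild type. Again no library of one genotype crossed into the next, and replicate 3 was the highest of the substituted transgene. The means were 5.74 ± 1.15, 21.4 ± 6.49 and 36.6 ± 3.62 CPM (SD, n = 5 each), and ATXN1[82Q] was 6.39-fold lower than wild type (95% interval 4.92 to 8.29).

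Tnc was lowest in ATXN1[82Q], and its other levels lay closer together. It read 9.22, 6.34, 5.07, 6.31 and 4.90 CPM in ATXN1[82Q], 19.0, 25.9, 33.6, 18.8 and 27.6 CPM with the substituted transgene, and 30.0, 34.6, 31.6, 40.9 and 27.0 CPM in wild type. The ATXN1[82Q] libraries stood apart from all others, whereas the other two genotypes overlapped, with 3 of 5 libraries of the substituted transgene under the lowest wild-type library. The means were 6.36 ± 1.73, 25.0 ± 6.26 and 32.8 ± 5.30 CPM (SD, n = 5 each), and ATXN1[82Q] was 5.17-fold lower than wild type (95% interval 3.95 to 6.77).

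Ostn was scarce in every genotype and showed another pattern, low with both transgenes. Its counts were 14, 18, 9, 14 and 17 in ATXN1[82Q] libraries, 17, 5, 32, 16 and 20 in those of the substituted transgene, and 82, 60, 37, 49 and 83 in wild type. Every library of either transgene was below every wild-type library, and the libraries of the transgenes overlapped each other. These are 0.350 ± 0.0838, 0.462 ± 0.256 and 1.60 ± 0.485 CPM (SD, n = 5 each), and ATXN1[82Q] was 4.55-fold lower than wild type (95% interval 2.78 to 7.45). With 72, 90 and 311 counts in all per genotype, counting error is a larger part of its spread than for the other 3 genes.

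**Figure D1:**
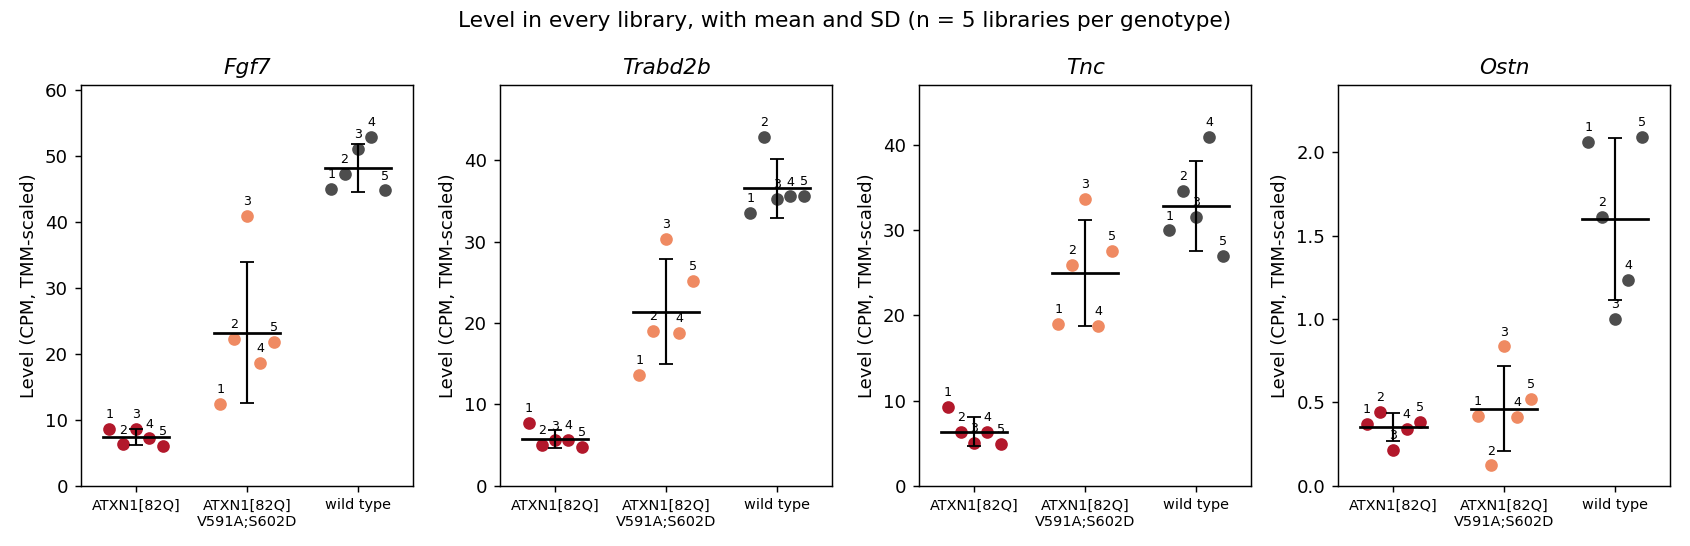
Level of each gene (CPM, TMM-scaled) in every library of ATXN1[82Q], the substituted transgene and wild type, with the replicate number beside each point, the mean as a long bar and the SD as whiskers (n = 5 libraries each). Fgf7 averaged 7.32, 23.2 and 48.2 CPM and Ostn 0.350, 0.462 and 1.60 CPM in these genotypes, and replicate 3 is the highest library of the substituted transgene in all 4 panels.

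Per kilobase of exon, mean levels in ATXN1[82Q] were 2.25 for Fgf7, 0.867 for Trabd2b, 0.819 for Tnc and 0.246 for Ostn, in CPM per kb. With the substituted transgene they were 7.14, 3.23, 3.21 and 0.325 CPM per kb for the genes in that order, and in wild type 14.8, 5.53, 4.22 and 1.12 CPM per kb. Fgf7 was thus the most abundant and Ostn the least abundant per length in each genotype. Trabd2b and Tnc were neighbours whose means differed by less than the SD with either transgene. In wild type the difference between Trabd2b and Tnc exceeded the SD of either (0.546 and 0.682 CPM per kb).

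The substituted transgene was then compared with wild type, a comparison that shares its 5 wild-type libraries with the one that chose the genes. Wild-type levels that read high would favour the choice, and would also enlarge the falls here. The p-values, intervals and places of the 4 genes take no account of this. Of all genes tested, 1.2% were called lower and 0.208% higher (edgeR quasi-likelihood test, Benjamini-Hochberg adjusted p under 0.05), and in 2.03% every library of the substituted transgene was below every wild-type library. Fgf7, Trabd2b and Ostn, 3 of the 4 genes, were called lower and did not overlap with wild type. The log2 fold change of Ostn was -1.79 (SE 0.33, edgeR adjusted p = 0.00747), a 3.47-fold lower level (95% interval 2.15 to 5.60) and the largest fall of all 15843 genes tested in this comparison. That place rests on 5 to 32 counts a library with the substituted transgene and 37 to 83 in wild type. Fgf7 changed by -1.06 (SE 0.21, edgeR adjusted p = 0.0127), 2.08-fold lower (1.53 to 2.82), and Trabd2b by -0.77 (SE 0.16, edgeR adjusted p = 0.0192), 1.71-fold lower (1.35 to 2.17). Tnc did not pass: its log2 fold change was -0.39 with a 95% interval of -0.75 to -0.04 (edgeR adjusted p = 0.367).

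The call of Trabd2b did not survive leaving out replicate 2 (log2 fold change -0.74, edgeR adjusted p = 0.0695) or replicate 4 (-0.73, adjusted p = 0.0659) of the transgenic libraries, or wild-type replicate 2 (-0.71, adjusted p = 0.0671). In the 7 libraries with little Ttr, Trabd2b (-0.98, adjusted p = 0.0894) and Ostn (-1.45, adjusted p = 0.0915) also missed the threshold.

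Set against the substituted transgene, ATXN1[82Q] had lower Fgf7, Trabd2b and Tnc, while Ostn was not called. This comparison shares its 5 ATXN1[82Q] libraries with the one that chose the genes, and 14.6% of all genes tested were called lower, 13.5% higher, and in 9.61% no library of ATXN1[82Q] reached the lowest one of the substituted transgene. Tnc was 3.94-fold lower (95% interval 3.01 to 5.15, log2 fold change -1.98, SE 0.18, edgeR adjusted p = 1.81e-06). Trabd2b was 3.73-fold lower (2.88 to 4.84, log2 fold change -1.90, SE 0.18, edgeR adjusted p = 1.85e-06) and Fgf7 3.17-fold lower (2.28 to 4.40, log2 fold change -1.66, SE 0.22, edgeR adjusted p = 6.62e-05). By size of fall they held places 3, 4 and 9 of 15843. ATXN1[82Q] levels that read low would favour the choice, and would also enlarge these falls. The p-values, intervals and places take no account of this. For Ostn the log2 fold change was -0.39 with a 95% interval of -1.18 to 0.39 (edgeR adjusted p = 0.458), so a difference of up to 2.26-fold lower in ATXN1[82Q] lies within the interval. In the libraries with little Ttr, Fgf7 changed by -0.99 (edgeR adjusted p = 0.0175).

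**Figure D2:**
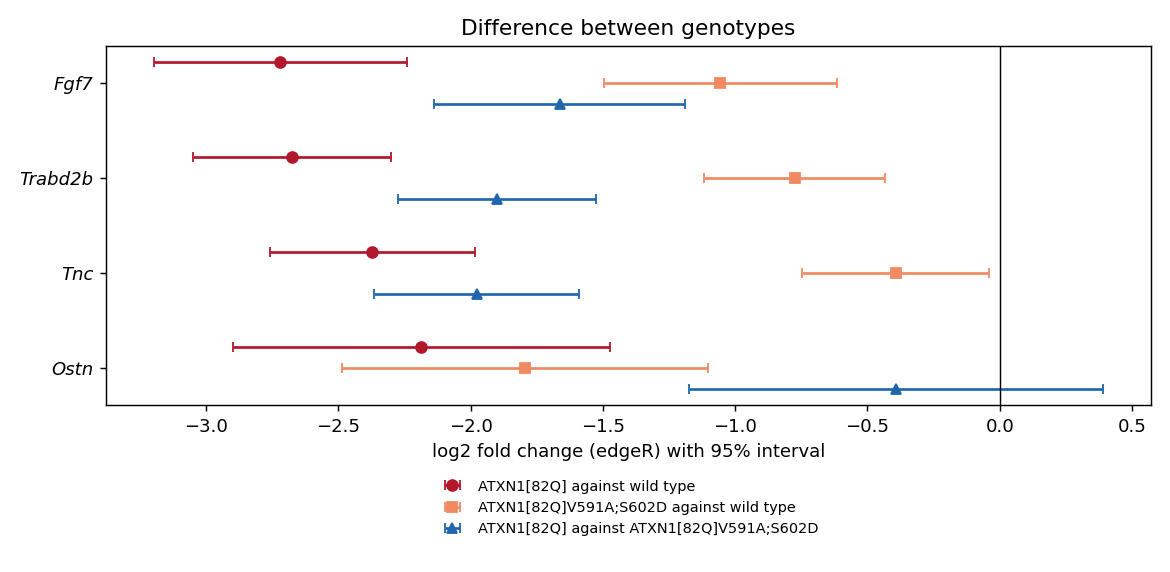
Log2 fold change of each gene in the 3 comparisons (points, edgeR) with 95% intervals (bars), and a line at no change. In ATXN1[82Q] against wild type, which chose the genes, the points lie between -2.72 and -2.19. For Tnc the smallest change is the substituted transgene against wild type (-0.39, interval -0.75 to -0.04). For Ostn it is ATXN1[82Q] against the substituted transgene (-0.39, interval -1.18 to 0.39).

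In ATXN1[82Q] against wild type, the comparison behind the choice, 14.9% of all genes tested were called lower, 16.6% higher and 9.79% had every ATXN1[82Q] library below every wild-type library. All 4 genes were in that last group, which follows in part from the choice. Their log2 fold changes were -2.72 (SE 0.23) for Fgf7, -2.68 (SE 0.18) for Trabd2b, -2.37 (SE 0.18) for Tnc and -2.19 (SE 0.34) for Ostn, beside a median of 0.01 over all genes tested. Purkinje cell markers were lower too, with 15 of 16 called lower and a median log2 fold change of -1.01. Markers of meningeal fibroblasts, cells that can also make matrix proteins, ran the other way, and each had counts in every genotype. They summed to 549 to 739 CPM in ATXN1[82Q], 268 to 477 CPM with the substituted transgene and 248 to 495 CPM in wild type. Bergmann glia and astrocyte markers summed to 3957 to 4466, 3881 to 4104 and 3908 to 4079 CPM. Of these 11 markers, 3 were called lower and 4 higher in ATXN1[82Q] against wild type. The part of these cell types in the values of the 4 genes was not tested.

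The libraries of the substituted transgene differed widely among themselves in these genes. Its highest library was 3.31 times its lowest for Fgf7, 2.24 times for Trabd2b, 1.79 times for Tnc and 6.85 times for Ostn, against 1.18, 1.28, 1.52 and 2.08 times in wild type. On the log2 scale its SD was 0.62 for Fgf7, larger than in 99.7% of 2306 genes of like mean level (within 0.5 log2 units). For Trabd2b, Tnc and Ostn the SD was 0.44, 0.36 and 0.87, larger than in 99.6%, 99.2% and 96.1% of genes of like level. In wild type the corresponding percentages were 81.8 for Fgf7, 88.3 for Trabd2b, 97.7 for Tnc and 88.9 for Ostn.

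Replicate 3 of the substituted transgene was the highest of its genotype for all 4 genes. It was also the highest for 112 of the 147 genes that were called lower by over 2-fold in ATXN1[82Q] against wild type (76.2%), but for 18.5% of all genes tested. The median SD on the log2 scale in this genotype was 0.27 over those 147 genes and 0.09 over all genes tested. The mean of the Purkinje cell markers, in log2 units relative to wild type, was -0.11 in replicate 3, against -0.45, -0.33, -0.36 and -0.28 in replicates 1, 2, 4 and 5. For Trabd2b the 5 libraries fell in the same order as for that marker mean. For Fgf7 and Tnc 1 neighbouring pair of libraries was exchanged, and for Ostn replicate 2 was the lowest and replicate 1 stood above replicate 4. These library comparisons were chosen after the data were seen, and which property of the library goes with its values was not tested.

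Replicate 3 was the highest library of the substituted transgene for each member gene. Leaving it out therefore had to move the levels of that genotype further from wild type. The smaller adjusted p-values against wild type follow in part from this choice of library. The values without replicate 3 are given as a description. The log2 fold change against wild type was then -1.36 for Fgf7 (edgeR adjusted p = 3.48e-05), -0.93 for Trabd2b (0.00145), -2.11 for Ostn (0.00134) and -0.52 for Tnc (0.167), so the calls were the same. Without it, ATXN1[82Q] differed from the substituted transgene by -1.36 for Fgf7, -1.74 for Trabd2b, -1.85 for Tnc and -0.07 for Ostn, where only Ostn was not called (edgeR adjusted p = 0.910).

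**Figure D3:**
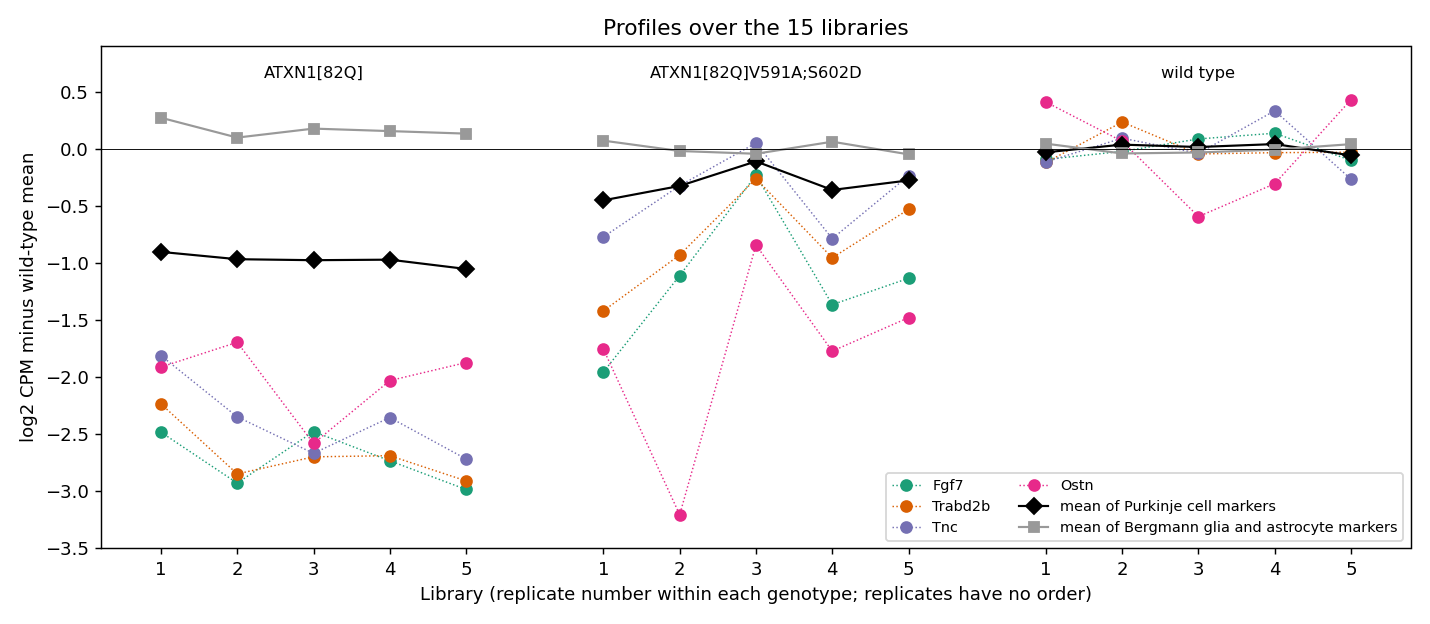
Log2 CPM of each gene minus its wild-type mean (vertical axis) in the 15 libraries (horizontal axis, by genotype and replicate number), with the mean of the Purkinje cell markers (diamonds) and of the Bergmann glia and astrocyte markers (squares), and lines drawn only to join points of a series. In replicate 3 of the substituted transgene the Purkinje marker mean is -0.11 and all 4 genes are at their highest for that genotype, while in ATXN1[82Q] the Purkinje marker mean lies between -1.05 and -0.90 and the genes lie lower.

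The genes most like each member were found by the root mean square difference in log2 CPM, each gene relative to its own wild-type mean, over the 15 libraries and among the 13995 genes whose log2 CPM averaged 0 or more (13996 for Ostn). These profiles include the libraries used in the choice, so the values are a description. Fgf7 and Trabd2b were nearest to each other (0.27 log2 units). Next to Fgf7 came Gng13 (0.40), a G protein subunit gene, Nlrp10 (0.43), Rgs8 (0.43), a regulator of G protein signalling used here as a Purkinje cell marker, and Col5a1 (0.46), a fibrillar collagen gene. Next to Trabd2b came Rgs8 (0.30), Cck (0.31), which encodes cholecystokinin, Gng13 (0.32) and Gpr63 (0.34), an orphan receptor gene. Tnc was most like Gpr63 (0.23), Col18a1 (0.27), a basement membrane collagen gene, Rgs8 (0.27), Cck (0.28) and Tspan11 (0.29).

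Ostn had no neighbour as close. At 5 to 83 counts a library, counting error can enlarge its distance to every gene. Genes with a mean log2 CPM under 0, as Ostn itself has (-0.61), were not searched. The nearest genes to Ostn were Gchfr (0.57), which encodes a feedback regulator of GTP cyclohydrolase, Cdc20 (0.63), an activator of the anaphase-promoting complex, Mdfi (0.73), Gng13 (0.75) and Plekhd1os (0.76). Against wild type, Gchfr had log2 fold changes of -2.70 in ATXN1[82Q] and -1.67 for the substituted transgene. Ostn stood 0.81 log2 units from Fgf7, 0.86 from Trabd2b and 1.01 from Tnc, while Tnc stood 0.54 from Fgf7 and 0.35 from Trabd2b. Exons of Gng13 overlap those of Chtf18 over 51.6% of their length, so its counts are uncertain.

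The partners of each gene in its pathway were read from lists chosen with earlier results of these data known. The FGF list held 20 ligands, receptors and carriers besides Fgf7, of which 16 were tested. In ATXN1[82Q] against wild type 1 was called lower and 5 higher, beside 14.9% and 16.6% of all genes tested, with a median log2 fold change of 0.32. Fgfbp1, a secreted carrier that releases FGFs from the matrix, averaged 4.50 ± 0.67 CPM in ATXN1[82Q] and 1.69 ± 0.58 CPM in wild type (SD, n = 5 each), a rise of 1.41 on the log2 scale (edgeR adjusted p = 5.79e-05). The ligand Fgf18 rose by 0.63 (edgeR adjusted p = 0.0252), which missed the threshold without ATXN1[82Q] replicate 4 (0.0568) or 5 (0.0836) or wild-type replicate 2 (0.0639), with the brainstem marker level as a covariate (0.0746) and in the 7 libraries with little Ttr (0.52, adjusted p = 0.191). The ligand Fgf9 was lower, at 32.9 ± 1.30 CPM in ATXN1[82Q] against 42.1 ± 2.5 CPM in wild type (log2 fold change -0.36, edgeR adjusted p = 2.21e-05). The receptor Fgfr3 rose by 0.22 (edgeR adjusted p = 0.0032), with 13.9% of its exonic bases shared with G630022F23Rik. Fgfr2, whose splice form binds FGF7, was at 88.8 ± 5.64 CPM against 80.0 ± 6.08 CPM (log2 fold change 0.15, edgeR adjusted p = 0.0404), and was named for that role after its values were seen.

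Against the substituted transgene, ATXN1[82Q] had 1 of the FGF genes called lower and 3 higher, beside 14.6% and 13.5% of all genes tested, with a median of 0.13. Fgfbp1 averaged 4.50 ± 0.67 CPM and 2.09 ± 0.54 CPM (log2 fold change 1.10, edgeR adjusted p = 0.000763). Fgf18 rose by 0.72 (edgeR adjusted p = 0.0145) and Fgfr3 by 0.23 (0.00317), and Fgf9 changed by -0.25 (0.001). In the 7 libraries with little Ttr Fgfbp1 changed by 1.00 (edgeR adjusted p = 0.0941), Fgf18 by 0.61 (0.214), Fgfr3 by 0.18 (0.0548) and Fgf9 by -0.21 (0.0949), all uncalled. In the substituted transgene against wild type 1 FGF gene was called, Fgfr1, at 271 ± 10.2 CPM against 227 ± 16.7 CPM (log2 fold change 0.26, edgeR adjusted p = 0.0154), and leaving out its replicate 1 (0.0514) or 2 (0.0565) ended this call, as did keeping only libraries with little Ttr (0.21, adjusted p = 0.147). Fgfr1 was also called higher in ATXN1[82Q] against wild type, at 256 ± 16.3 CPM (log2 fold change 0.17, edgeR adjusted p = 0.0162).

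Of 45 Wnt ligands, receptors, inhibitors and targets 39 were tested, and in ATXN1[82Q] against wild type 4 were called lower and 12 higher, beside the same shares of all genes (14.9% and 16.6%), with a median of 0.17. The ligand Wnt4 averaged 8.76 ± 1.40 CPM in ATXN1[82Q] and 4.80 ± 1.58 CPM in wild type (log2 fold change 0.87, edgeR adjusted p = 0.00231). The receptor Fzd2 averaged 5.19 ± 0.61 CPM and 2.92 ± 0.42 CPM (0.83, edgeR adjusted p = 0.000406). The scarce ligands Wnt10a, at 0.375 CPM against 0.203 CPM, and Wnt11, at 0.980 CPM against 0.538 CPM, rose by 0.89 and 0.86 (edgeR adjusted p = 0.0334 and 0.0387). The Wnt10a call was lost without ATXN1[82Q] replicate 2, 4 or 5 or wild-type replicate 1, 2 or 5 (edgeR adjusted p up to 0.0778), and the Wnt11 call without ATXN1[82Q] replicate 1, 3, 4 or 5 or wild-type replicate 3, 4 or 5 (up to 0.0977). The brainstem marker covariate ended both calls (edgeR adjusted p = 0.0793 for Wnt10a and 0.0684 for Wnt11), and Wnt10a was also lost with DESeq2 (adjusted p = 0.0739) and in the libraries with little Ttr (0.23, edgeR adjusted p = 0.768).

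Against the substituted transgene, 4 Wnt genes were called lower and 9 higher in ATXN1[82Q], beside 14.6% and 13.5% of all genes, with a median of 0.13. Wnt11 rose by 1.06 (edgeR adjusted p = 0.0169), Wnt10a by 0.99 (0.0228), Fzd2 by 0.61 (0.00522) and Wnt4 by 0.57 (0.0324). Leaving out ATXN1[82Q] replicate 4 or 5, or number 1 or 2 of the other genotype, ended the Wnt4 call (edgeR adjusted p up to 0.0829). Leaving out ATXN1[82Q] replicate 5, or number 2 or 3 of the other genotype, ended the Wnt10a call (up to 0.0626). The brainstem marker covariate ended the calls of Wnt10a (edgeR adjusted p = 0.0579) and Wnt4 (0.0826). In the libraries with little Ttr Wnt10a changed by 0.34 (edgeR adjusted p = 0.712), Wnt4 by 0.40 (0.410) and Fzd2 by 0.55 (0.192), all uncalled, while Wnt11 stayed called at 1.70. In the substituted transgene against wild type 1 Wnt gene was called lower and 1 higher. The target gene Sp5 averaged 5.97 ± 0.65 CPM against 4.05 ± 0.73 CPM (log2 fold change 0.56, edgeR adjusted p = 0.0162), which missed the threshold when number 1 of that genotype or wild-type replicate 2, 3 or 4 was left out (up to 0.0562). The ligand Wnt3 averaged 14.0 ± 1.06 CPM against 17.4 ± 0.92 CPM (-0.31, edgeR adjusted p = 0.0192), which missed it when number 1 or 2 of either genotype was left out (up to 0.0661) and in the libraries with little Ttr (-0.30, adjusted p = 0.340). Wnt3 was also called lower in ATXN1[82Q] against wild type, at 11.7 ± 0.88 CPM (log2 fold change -0.56, edgeR adjusted p = 5.09e-06). Sp5 read 5.53 to 6.77 CPM in ATXN1[82Q] libraries and 3.38 to 5.20 CPM in wild-type libraries.

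All 21 tenascins and tenascin-C partners other than Tnc were tested, and in ATXN1[82Q] against wild type 2 were called lower and 9 higher, beside 14.9% and 16.6% of all genes, with a median of 0.26. Annexin A2, a receptor for tenascin-C encoded by Anxa2, averaged 22.8 ± 2.35 CPM in ATXN1[82Q] and 14.1 ± 1.71 CPM in wild type (log2 fold change 0.69, edgeR adjusted p = 7.52e-05). The integrin subunit Itga9 rose by 0.43 (edgeR adjusted p = 0.00163) and Itga8 by 0.42 (0.0289), the call of Itga8 being lost without ATXN1[82Q] replicate 1, 3 or 4 or wild-type replicate 2 or 3 (up to 0.0809) and that of Itga9 in the libraries with little Ttr (0.40, adjusted p = 0.113). The integrin subunit Itgb6 was scarce and lower, at 0.116 ± 0.0576 CPM against 0.402 ± 0.129 CPM (-1.77, edgeR adjusted p = 0.00527). In the substituted transgene against wild type none was called by edgeR or by DESeq2, and 1 had an unadjusted edgeR p under 0.05. Without replicate 3 of the substituted transgene, its highest library for Itgb6, that gene was called (-1.65, edgeR adjusted p = 0.0465). Between ATXN1[82Q] and the substituted transgene 1 was called lower and 9 higher, beside 14.6% and 13.5% of all genes, with a median of 0.29. Among them Itga2 rose by 0.52 (edgeR adjusted p = 0.004), a call lost in the libraries with little Ttr (0.48, adjusted p = 0.169), and Anxa2 by 0.52 (0.00141). The matrix proteoglycan gene Bcan averaged 339 ± 18.1 CPM against 246 ± 8.14 CPM (0.46, edgeR adjusted p = 3.57e-06). Sdc4, which encodes syndecan-4, averaged 124 ± 2.03 CPM against 90.8 ± 5.07 CPM (0.45, edgeR adjusted p = 6.93e-06).

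Of 12 natriuretic peptide genes, receptors and effectors 10 were tested, and in ATXN1[82Q] against wild type 3 were called lower and 1 higher, beside 14.9% and 16.6% of all genes, with a median of 0.09. Prkg1, the cGMP-dependent protein kinase downstream of natriuretic receptors, averaged 21.8 ± 1.87 CPM in ATXN1[82Q] and 38.2 ± 5.16 CPM in wild type (log2 fold change -0.81, edgeR adjusted p = 1.02e-06). Npr1, a guanylyl cyclase receptor, averaged 10.4 ± 0.16 CPM against 17.6 ± 1.93 CPM (-0.75, edgeR adjusted p = 0.000273), with 11.7% of its exonic bases shared with Gm16048. Mef2d, of the MEF2 factors, changed by -0.18 (edgeR adjusted p = 0.0181), a call lost without wild-type replicate 2 (0.0541) or 3 (0.0602) or with the brainstem marker covariate (0.0595), and the receptor Npr2 rose by 0.18 (0.00277). Npr3, the receptor that binds osteocrin, averaged 7.0 ± 1.89 CPM against 4.06 ± 2.76 CPM and did not pass (log2 fold change 0.78, edgeR adjusted p = 0.123), and was named for that role after its values were seen.

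With the substituted transgene against wild type Prkg1 was called, at 29.7 ± 1.69 CPM against 38.2 ± 5.16 CPM (-0.37, edgeR adjusted p = 0.0275), and the call ended when number 1, 2 or 4 of that genotype or wild-type replicate 2, 3 or 4 was left out (up to 0.0826). It also ended in a fit to the 2 genotypes alone (edgeR adjusted p = 0.0504) and in the libraries with little Ttr (-0.45, adjusted p = 0.0760). Without replicate 3 of the substituted transgene, its highest library for Npr1, that gene was called as well (-0.59, edgeR adjusted p = 0.00384). Between ATXN1[82Q] and the substituted transgene Prkg1 changed by -0.44 (edgeR adjusted p = 0.000824, and 0.0516 in the libraries with little Ttr) and Mef2d by -0.30 (0.000911). Npr2 changed by 0.11 (edgeR adjusted p = 0.0456), and this call was lost in 13 of 24 alternatives. Among them were leaving out ATXN1[82Q] replicate 1, 3 or 4, any of numbers 1 to 4 of the substituted transgene, or wild-type replicate 1 or 3 (edgeR adjusted p up to 0.116).

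Of the called partner genes in ATXN1[82Q] against wild type, 5 of 6 FGF, 12 of 16 Wnt, 9 of 11 tenascin and 1 of 4 natriuretic genes were higher, beside 2635 of 4993 over all genes called. Meningeal fibroblast markers moved the same way, with 11 of 12 called higher against wild type and 10 of 12 against the substituted transgene, and their part in these counts was not tested. In the 7 libraries with little Ttr the calls in ATXN1[82Q] against the substituted transgene were 0 of the FGF, 2 of the Wnt, 4 of the tenascin and 2 of the natriuretic list, while calls over all genes were 1512 in place of 4454. Against wild type they were 3, 10, 7 and 4, and over all genes 3234 in place of 4993.

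**Figure D4:**
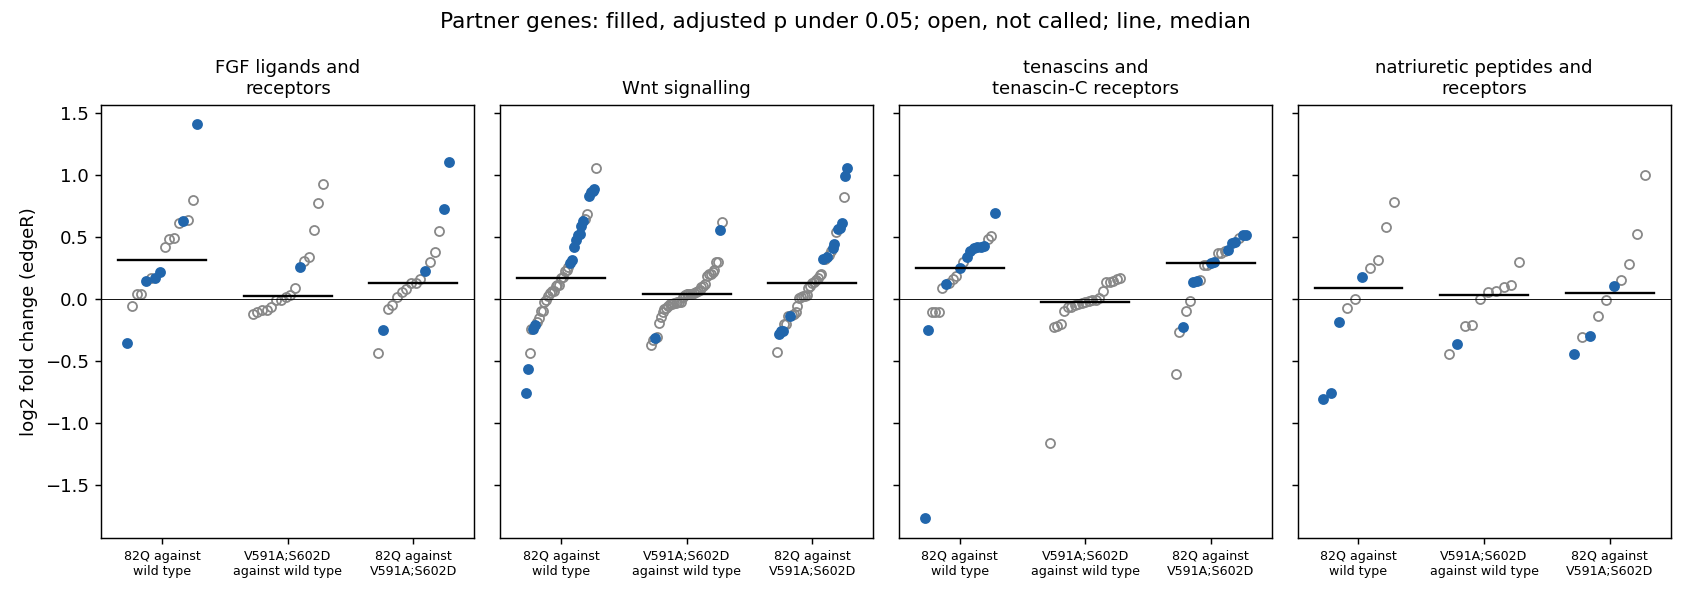
Log2 fold change (edgeR, vertical axis) of the tested genes of each partner list in the 3 comparisons, with filled points for an adjusted p under 0.05, open points for genes not called and a bar at the median. For the tenascin list the median is 0.26 in ATXN1[82Q] against wild type, -0.03 in the substituted transgene (V591A;S602D) against wild type and 0.29 in ATXN1[82Q] (82Q) against the substituted transgene.

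For the nearest tested genes on the chromosome, a comparison added after the data were seen, log2 fold changes in ATXN1[82Q] against wild type ran from -0.27 to 1.37. Fam227b, which overlaps the Fgf7 locus on the other strand without sharing exonic bases, changed by 0.29 (edgeR adjusted p = 0.0291), Galk2 by 0.17 (0.0486) and Dtwd1 by -0.06 (0.707). On the sides of Ostn, Ccdc50, 37657 bases away, changed by -0.27 (edgeR adjusted p = 9.59e-07). Gmnc, 315837 bases away, changed by 1.37 without being called (edgeR adjusted p = 0.198). Atp6v1g1, 409035 bases from Tnc, and Foxd2, 291184 bases from Trabd2b, were not called in any of the 3 comparisons. Genes that were not tested lie closer to Tnc and Trabd2b than these. The same holds on the Ccdc50 side of Ostn (Uts2b, 2110 bases away) and the Dtwd1 side of Fgf7 (Gm26496, 18723 bases away).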

How the data were processed

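RNA was sequenced from cerebella of 15 libraries. Per the labels' protocols, cDNA was amplified from 10 ng of total RNA with primers for the poly(A) tail and random positions, with inserts of 400 bp. Per the submitters' processing notes, the authors used STAR 2.5.3a, the mm10 genome, HTSeq and DESeq2. The deposited values are whole-number counts per gene, not normalised. The sources used here name no strand setting or annotation. Reads outside genes were 16.8% to 18.2% and ambiguous reads 1.18% to 1.25%, and both stayed out of library sizes.

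Counts were tested with edgeR 4.0.16 (R 4.3.3), quasi-likelihood F-test, all 15 libraries in 1 fit, TMM factors of 0.968 to 1.04, filterByExpr with a minimum count of 10, and Benjamini-Hochberg adjustment over 15843 genes, called at 0.05. Log2 CPM used a prior count of 2. Amplified reads are not independent molecules, so intervals describe library spread only. Exons came from GENCODE M21. Libraries within a genotype differed beyond sampling noise in all 30 pairs (chi-square over its degrees of freedom 5.70 to 40.6).

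The 4 genes and all lists were chosen with earlier results of these data known. Named genes were the 4 genes, up to 4 called genes of largest change per partner list and comparison, the 5 genes most like each of the 4, and Pcp2, Calb1, Gabra6, Ttr, Xist and Atxn1, and exceptions are marked. Pcp2 averaged 58.1 ± 4.65, 103 ± 6.85 and 106 ± 3.00 CPM in ATXN1[82Q], the substituted transgene and wild type (SD, n = 5 each). Lists of granule cell, interneuron and brainstem markers summed to 5168 to 5579, 590 to 674 and 23.0 to 76.1 CPM in ATXN1[82Q], 6419 to 7303, 527 to 563 and 23.3 to 26.4 CPM with the substituted transgene, and 6519 to 7622, 510 to 627 and 12.9 to 32.7 CPM in wild type. Choroid plexus markers summed to 39.1 to 5208, 44.3 to 3802 and 25.1 to 4065 CPM. Alternatives tried were RLE size factors, no filter, DESeq2 1.42.0, a fit to the genotypes compared, a block for replicate number, leaving out each library, Ttr, Xist or brainstem marker level as a covariate, and only libraries with Ttr under 100 CPM.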

Additional observations from a re-analysis of the deposited data

Results flagged for a closer look

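Of 12 sets of 5 libraries (4 genes in 3 genotypes), 2 held a library far from the other 4 by a test of the gap to its nearest neighbour, and chance marks about 1 in 20 sets. Both concern Trabd2b. In ATXN1[82Q] its highest library, replicate 1, read 7.70 CPM while the others read 4.81 to 5.61 CPM. In wild type its highest library, replicate 2, read 42.9 CPM while the others read 33.5 to 35.7 CPM.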

How the results depend on the processing

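Of 288 alternative values for the 4 genes (24 settings, 3 comparisons), 283 kept direction and call or stayed within the replicate SD, 5 missed the threshold and 0 reversed. They include 24 values per gene from ATXN1[82Q] against wild type, which chose the genes. No call is given there, and a fall follows in part from the choice. The 5 that missed the threshold were all in the substituted transgene against wild type. Trabd2b was lost in libraries with Ttr under 100 CPM (log2 fold change -0.98) and without any of 3 libraries, its values with a library left out running from -0.93 to -0.65. Ostn was lost in the libraries with Ttr under 100 CPM (-1.45). That setting keeps 7 libraries, and the cause was not tested otherwise. Over all genes it called 3234, against 4993, in ATXN1[82Q] against wild type, and 1512, against 4454, in ATXN1[82Q] against the substituted transgene. In the substituted transgene against wild type 223 genes were called, 429 with DESeq2, 136 without replicate 2 and 142 without replicate 4 of that genotype, and 143 without wild-type replicate 2. Libraries sharing a replicate number were not treated as pairs, since the labels give no pairing. Of 15 such pairs 4 had r above 0.1 (median -0.11, highest 0.57), and 3 of 15 libraries correlated best with their own number. These values do not settle whether libraries of the same number were prepared together. With the replicate block 4681, 174 and 4152 genes were called, against 4993, 223 and 4454. Among named partner genes the block ended the calls of Wnt10a (edgeR adjusted p = 0.0637) and Wnt11 (0.0607) in ATXN1[82Q] against wild type, Prkg1 (0.0612) and Wnt3 (0.0518) in the substituted transgene against wild type, and Npr2 (0.0679) between the transgenes. Of list counts 29 of 288 moved by over 1.5 times, and of values for named partner genes 86 of 839 missed the threshold and 0 reversed. For Ostn, at 5 to 83 counts a library, depth limits what can be seen.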
